A study of Mus musculus with 2 samples.

Results

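The genes described here are 10 immediate early genes, EGR1, EGR2, EGR3, NR4A1, NR4A2, NR4A3, IER2, IER3, BTG2 and ZFP36, out of 57011 labels in the deposited expression table. They were picked by symbol, with earlier results of these same libraries known. A row was taken for a gene where its label was that symbol, and no member stood in a locus merged with another gene. RNA was sequenced from 2 patient-derived xenografts, human tumors maintained by growth in mice that do not reject them. One library came from a metastatic neuroendocrine tumor carried in the peritoneal cavity and one from a primary neuroendocrine tumor carried in the flank. Both were of gastroenteropancreatic type and both were propagated in athymic nude mice of the Foxn1nu strain, which lack T cells. Whether the tumors came from the same patient is not given by the labels, although the sample names share a code. Each tumor had 1 library, so no difference has a replicate check, no test was possible and no p-value is given. Tumor origin and graft site changed together and cannot be told apart.

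Immediate early genes are transcribed within minutes of a stimulus and need no new protein synthesis, because the factors that switch them on are already present and wait for phosphorylation. Growth factor signals pass through the RAF, MEK and ERK kinases to serum response factor and its ternary complex partners, and cyclic AMP and calcium signals reach CREB. Their mRNAs are short-lived, so a level reads recent signaling. Handling of tissue is also known to raise them; both tumors were dissociated into cells before RNA was extracted, and how long this took is not given. Among the products, the EGR proteins are zinc finger transcription factors, the NR4A proteins are orphan nuclear receptors, and ZFP36 and BTG2 act on mRNA decay. IER2 is a small nuclear protein and IER3 a stress-induced regulator of cell survival.

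Sequence near the start of such genes can hold elements through which these signals are known to act. Human promoters were not used here. Promoters of the mouse genes of the same name, from RefSeq on GRCm38.p6, were read instead for 7 of the 10 members, and they show the kind of element and not the measured human DNA. The 150 bases before a start are printed for Egr2 and Zfp36, as the matched genes with a serum response element, also called the CArG box, and for Nr4a1, as an example of the short CREB site. Each runs 5′ to 3′ on the strand of the gene and ends at the last base before the start. Capitals mark the CArG box in Egr2 and Zfp36, and TGACG or its reverse complement CGTCA in Nr4a1.
Egr2, chr10:67537719-67537868, plus strand: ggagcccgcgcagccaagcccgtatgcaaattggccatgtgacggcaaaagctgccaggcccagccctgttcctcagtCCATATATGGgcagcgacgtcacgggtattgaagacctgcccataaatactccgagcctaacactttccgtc
Zfp36, chr7:28379229-28379378, minus strand: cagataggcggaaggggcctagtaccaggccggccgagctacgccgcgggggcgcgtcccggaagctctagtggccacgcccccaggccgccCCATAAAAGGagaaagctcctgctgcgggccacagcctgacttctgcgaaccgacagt
Nr4a1, chr15:101266696-101266845, plus strand: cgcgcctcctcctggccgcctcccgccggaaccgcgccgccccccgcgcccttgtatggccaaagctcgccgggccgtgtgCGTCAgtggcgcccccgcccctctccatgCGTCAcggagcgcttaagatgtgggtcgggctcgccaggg

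The CArG box began 72 bases before the start in mouse Egr2 and 58 bases before it in mouse Zfp36. In mouse Nr4a1 the short sites within the printed bases began 69 and 40 bases before the start. Over the 250 bases before each start, with both strands searched, 2 of the 7 matched mouse genes held a CArG box at one or more of their listed starts, against 1.62% of 27025 mouse genes. The short site TGACG stood in 5 of the 7, namely Egr2, Nr4a1, Nr4a2, Nr4a3 and Btg2, against 19.8% of mouse genes. The full site TGACGTCA, which contains the short site on both strands, stood in Btg2 of the 7, against 1.77% of mouse genes. The listed Btg2 start did not have its first 30 transcribed bases in a transcript of that gene. Both Btg2 matches therefore rest on a start that was not borne out. These are matches of letters in a window and say nothing of binding in these tumors.

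Values were FPKM as deposited. This measure is meant to correct fragment numbers for transcript length and for the amount of sequence mapped. Levels of different genes can thus be set side by side. Whether each library was corrected for its own depth is not given. Some low entries stood at whole-number ratios between the libraries, and unscaled log2 ratios may hold a difference in depth. This was not tested. The columns summed to 885319 in the metastatic and 784987 in the primary library, and the read depth behind them is unknown. The log2 ratio is metastatic over primary with 1 FPKM added to both values, so differences between low values come out too small. Of 13811 entries with at least 1 FPKM in a library, 9.35% stood lower by 2-fold or more in the metastatic tumor, 9.22% stood higher by as much, and the median log2 ratio was 0.03. In numbers these were 1291 lower and 1273 higher, against 1813 lower and 1029 higher after scaling both libraries to the same sum, which moved the median to -0.13. That scaling also changes which entries pass the filter. Of neuroendocrine markers, CHGA was listed at 0 in both libraries, SYP stood at 1.96 FPKM in the metastatic and 1.63 FPKM in the primary tumor, and INSM1 at 0.271 and 3.54 FPKM in the same order, so these neuroendocrine markers were low or listed at 0, and an exact 0 can be a failed estimate. ENO2 and SSTR2 stood in loci merged with other genes and were not read. Of 4 expressed genes of this list, 2 were at least 2-fold lower and 0 higher. Of 6 expressed epithelial markers 2 were higher by 2-fold, or 1 after scaling to the same sum, and 0 were lower. They ran from CLDN4, at 10.6 FPKM in the metastatic and 2.30 FPKM in the primary tumor, and CDH1, at 10.1 and 4.96 FPKM, to KRT8, at 1423 and 649 FPKM.

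Most of the immediate early genes stood lower in the metastatic tumor. Of the 10 members, 9 passed the filter of 1 FPKM, and 7 of them stood at least 2-fold lower, beside 9.35% of all entries. Of those 7, 4 were at least 4-fold lower, and 0 members were higher by 2-fold. EGR1, NR4A1, NR4A2 and EGR3 were the furthest lower. IER2 and IER3 stood within 2-fold, and NR4A3 was under 1 FPKM in both tumors. The members were chosen with this contrast known, so the count describes them and supports nothing beyond them. Their summed level was 524 FPKM in the metastatic and 1452 FPKM in the primary tumor. IER2 alone made 73.3% of that sum in the metastatic and 49.2% in the primary tumor.

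**Figure D1:**
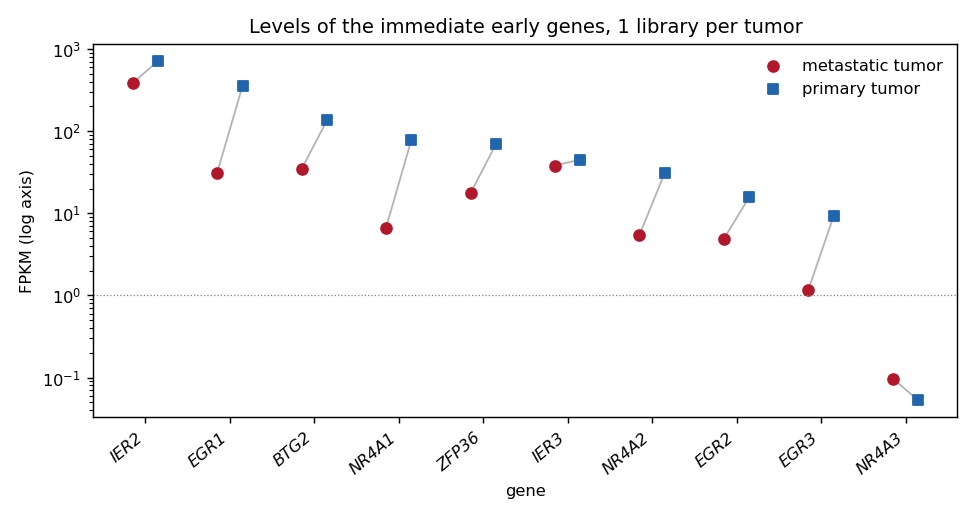
FPKM of each member (log axis) in the metastatic tumor (red circles) and the primary tumor (blue squares), 1 library each, with genes in order of their primary level; the dotted line marks 1 FPKM. EGR1 and NR4A1 show the widest gaps, IER3 and IER2 the narrowest among the genes above 1 FPKM, and NR4A3 lies under the line in both tumors.

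The EGR genes encode zinc finger factors that bind GC-rich DNA and are restrained by the NAB corepressors. EGR1, the most abundant of them and a regulator of growth and survival genes, had 31.1 FPKM in the metastatic and 354 FPKM in the primary tumor. It was thus 11.4-fold lower without a pseudocount, with a log2 ratio of -3.47. Only 68 of the 13811 entries, itself included, had a log2 ratio as low. Within each library EGR1 ranked 3629th of the entries in the metastatic and 277th in the primary tumor, an order that rescaling a library leaves as it is among the same entries.

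EGR2, a factor known from myelination and immune tolerance, had 4.90 FPKM in the metastatic and 15.7 FPKM in the primary tumor, a log2 ratio of -1.50. EGR3, a factor required for muscle spindles in mice, had 1.17 FPKM in the metastatic and 9.26 FPKM in the primary tumor, a log2 ratio of -2.24. Both kept their place below EGR1 in each tumor. EGR4, outside the members, had 0.397 FPKM in the metastatic and 0.0418 FPKM in the primary tumor, under the filter in both. EGR1 made 82.8% of the summed FPKM of these 4 genes in the metastatic and 93.4% in the primary tumor.

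Regulators and relatives of the EGR factors differed in both directions. NAB2, a corepressor that EGR1 is known to induce, had 21.2 FPKM in the metastatic and 14.9 FPKM in the primary tumor, a log2 ratio of 0.48. NAB1, its relative, had 15.4 FPKM in the metastatic and 31.8 FPKM in the primary tumor, at the 2-fold limit, and within it after scaling to the reference genes. The ratio of EGR1 to NAB2 was 1.47 in the metastatic and 23.8 in the primary tumor. WT1, a zinc finger factor that recognizes similar DNA, had 2.65 FPKM in the metastatic and 0.0477 FPKM in the primary tumor, a log2 ratio of 1.80 and so past 2-fold higher, at a low level. With a filter of 5 FPKM it drops out.

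The NR4A receptors have ligand pockets filled by their own side chains and are governed mainly by how much is made. NR4A1, also called Nur77, had 6.68 FPKM in the metastatic and 78.7 FPKM in the primary tumor. It was 11.8-fold lower without a pseudocount, the widest plain ratio among the members, and its log2 ratio was -3.38. NR4A2, also called Nurr1 and known for its part in dopamine neurons, had 5.45 FPKM in the metastatic and 31.1 FPKM in the primary tumor, a log2 ratio of -2.31. NR4A1 thus exceeded NR4A2 by 1.23 times in the metastatic and 2.53 times in the primary tumor.

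NR4A3, also called Nor1, had 0.0970 FPKM in the metastatic and 0.0529 FPKM in the primary tumor. It was the only member higher in the metastatic tumor, and its values are too low to read a difference from. Its ratio was that of the whole numbers 11 and 6, and other low entries also stood at whole-number ratios. RXRA, a receptor that pairs with NR4A1 and NR4A2, had 4.82 FPKM in the metastatic and 6.39 FPKM in the primary tumor. RXRB stood at 0.0749 FPKM in the metastatic and 0.299 FPKM in the primary tumor, and RXRG at 0.0239 FPKM in the metastatic tumor and listed at 0 in the primary tumor. NR4A1 was 1.39 times the level of RXRA in the metastatic and 12.3 times in the primary tumor.

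BTG2 and ZFP36 bring mRNAs to the CCR4-NOT deadenylase, BTG2 as an antiproliferative p53-inducible protein and ZFP36, also called tristetraprolin, by binding AU-rich elements. BTG2 had 34.55 FPKM in the metastatic and 135 FPKM in the primary tumor, a log2 ratio of -1.94. ZFP36 had 17.5 FPKM in the metastatic and 69.3 FPKM in the primary tumor, a log2 ratio of -1.93. Their plain folds were alike, at 3.91-fold and 3.97-fold lower in the metastatic tumor.

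Paralogs of both genes were measured as well. BTG1 had 104 FPKM in the metastatic and 130.4 FPKM in the primary tumor, and BTG3 35.1 and 26.2 FPKM in the same order. The level of BTG2 was 0.331 of that of BTG1 in the metastatic tumor and 1.04 of it in the primary tumor. TOB1 had 22.4 FPKM in the metastatic and 24.8 FPKM in the primary tumor, and TOB2 16.9 and 16.8 FPKM, while BTG4 was listed at 0 in both. ZFP36L1 had 48.5 FPKM in the metastatic and 137 FPKM in the primary tumor, a log2 ratio of -1.48. ZFP36L2 had 35.4 FPKM in the metastatic and 68.3 FPKM in the primary tumor, a log2 ratio of -0.93. All 3 ZFP36 genes were thus lower in the metastatic tumor, ZFP36L2 within 2-fold except after scaling to the same sum.

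**Figure D2:**
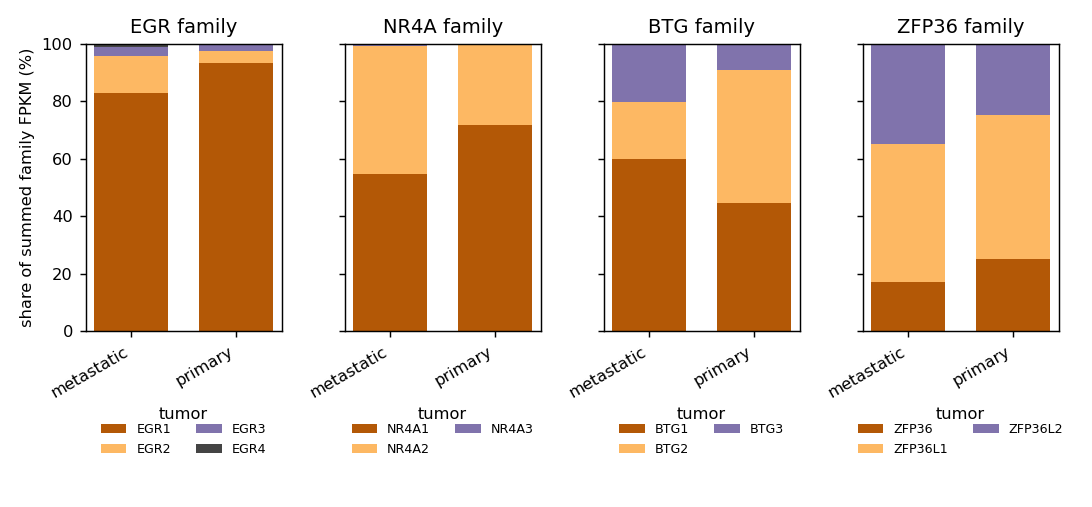
Share of the summed FPKM of each family held by each gene (percent), in the metastatic tumor (left bar) and the primary tumor (right bar), 1 library each. EGR1 holds 82.8% of the EGR sum in the metastatic and 93.4% in the primary tumor, and BTG2 holds 19.9% of the BTG sum in the metastatic and 46.3% in the primary tumor.

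IER2, the small nuclear protein, was the most abundant member in both tumors. It had 384 FPKM in the metastatic and 714 FPKM in the primary tumor, a log2 ratio of -0.89. This was within 2-fold, and past it at -1.07 after scaling to the same sum. IER3, also called IEX-1 and known to be inducible by NF-kB, had 38.1 FPKM in the metastatic and 45.0 FPKM in the primary tumor, a log2 ratio of -0.23. Its label stood on 6 rows, of which 5 were at 0 in both libraries, so its value rests on 1 row and may miss fragments assigned to another copy.

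The IER5 genes, which share part of the IER2 sequence, were measured too. IER5 had 10.5 FPKM in the metastatic and 7.92 FPKM in the primary tumor. IER5L had 12.8 FPKM in the metastatic and 25.3 FPKM in the primary tumor, a log2 ratio of -0.94. None of these 4 IER genes was past 2-fold in either direction without rescaling, and IER2 and IER5L were past it after scaling to the same sum.

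The order of levels differed between the tumors. In the metastatic tumor it ran IER2, IER3, BTG2, EGR1, ZFP36, NR4A1, NR4A2, EGR2, EGR3 and NR4A3, and in the primary tumor IER2, EGR1, BTG2, NR4A1, ZFP36, IER3, NR4A2, EGR2, EGR3 and NR4A3. EGR1 thus took the 4th place in the metastatic and the 2nd in the primary tumor, and IER3 the 2nd and the 6th place in the same order. Without replicates, the spread between neighbors such as IER3 and BTG2 in the metastatic tumor is unknown. The level of EGR1 was 0.0810 of that of IER2 in the metastatic and 0.495 of it in the primary tumor.

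**Figure D3:**
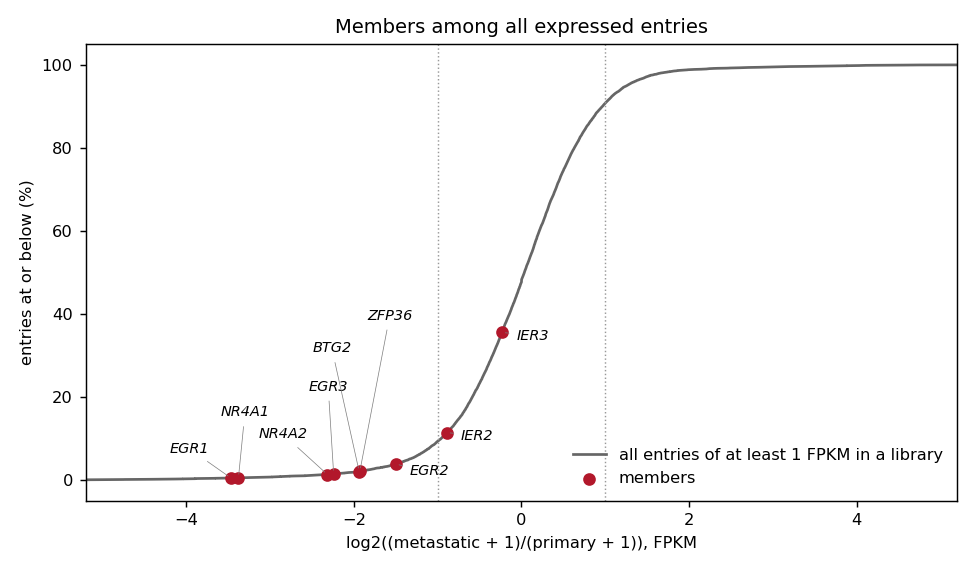
Percent of the 13811 entries at or below each log2 ratio (metastatic over primary, FPKM + 1; gray line), with the 9 members of at least 1 FPKM in a library as red points; dotted lines mark 2-fold. EGR1 and NR4A1 lie where 0.492% and 0.550% of entries are as low, IER2 at 11.4% and IER3 at 35.6%.

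Other immediate early genes were mixed, with more below than above. Of 37 listed genes outside the members, 34 passed the filter. Of these, 15 stood at least 2-fold lower and 2 higher by as much, beside 9.35% and 9.22% of all entries. Their median log2 ratio was -0.79, beside 0.03 over all entries. The AP-1 subunits FOSB and FOS were furthest lower. FOSB had 2.12 FPKM in the metastatic and 92.6 FPKM in the primary tumor, a log2 ratio of -4.91, and FOS 16.1 and 490 FPKM, a log2 ratio of -4.85. ATF3, a stress-inducible factor, had a log2 ratio of -3.44 and TRIB1, a pseudokinase, of -2.44. The 2 higher ones, FOSL1 at 2.02 and ARC at 1.40, were named after their values were seen.

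**Figure D4:**
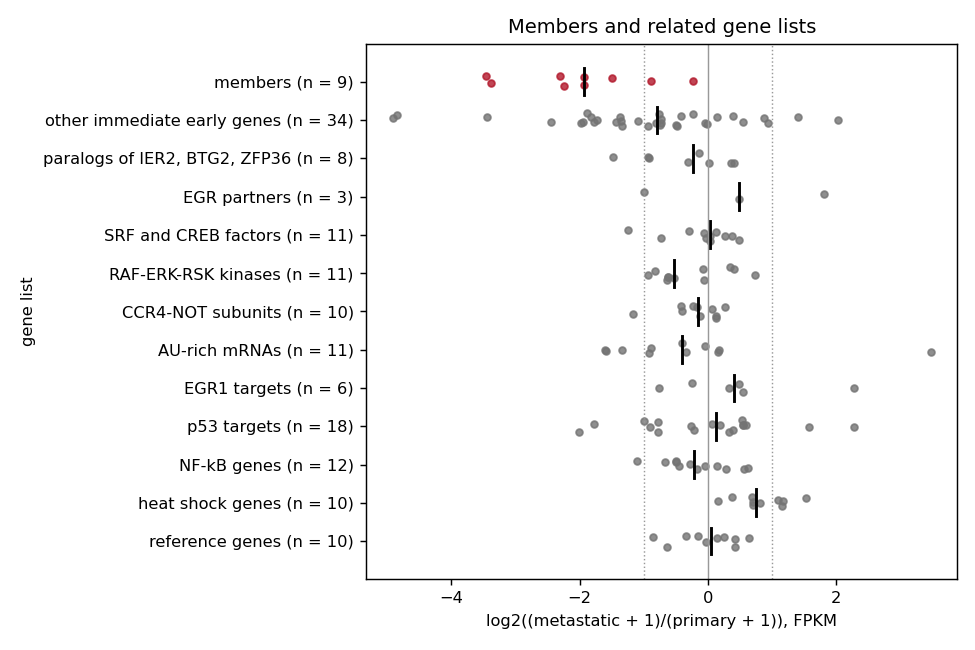
Log2 ratio (metastatic over primary, FPKM + 1) of each gene of at least 1 FPKM in a library, by gene list, with members in red, a black bar at the median of each list and dotted lines at 2-fold; vertical scatter within a list is arbitrary. Members have a median of -1.94 and other immediate early genes of -0.79, while SRF and CREB factors have a median of 0.03 and heat shock genes of 0.75.

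Genes that relay signals to the members stood nearer to 0. Of 11 expressed genes for SRF, its partners and CREB factors, 1 was at least 2-fold lower and 0 higher. The 1 lower gene of 11 is near the 9.35% lower of all entries, and 9.22% of all entries were higher. The median of the 11 was 0.03, or -0.12 after scaling to the same sum. SRF itself had 13.3 FPKM in the metastatic and 9.29 FPKM in the primary tumor, and its coactivator MRTFA 7.10 and 5.22 FPKM. CREB1 was the lower one, at 5.06 FPKM in the metastatic and 13.3 FPKM in the primary tumor, and its coactivator CRTC1 had a log2 ratio of -0.73. Of 11 expressed kinases from RAF to RSK, MSK and p38, 0 passed 2-fold in either direction, with a median of -0.53, and 1 was past 2-fold lower with a pseudocount of 0.1 or 0.5 FPKM, with none, and after scaling to the same sum. MAPK3, encoding ERK1, had 42.9 FPKM in the metastatic and 67.3 FPKM in the primary tumor. MAP2K2, encoding MEK2, had a log2 ratio of 0.74 and RPS6KA5, encoding MSK1, of -0.83, at 0.348 FPKM in the metastatic and 1.40 FPKM in the primary tumor. These are mRNA levels and do not measure kinase activity.

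Genes downstream of the members were also mixed. Over all entries 9.35% were lower and 9.22% higher by 2-fold or more, which each count here stands beside. Of 6 expressed genes reported as EGR1 targets, 1 was past 2-fold and higher, and the median was 0.41. The higher one was GDF15, a stress cytokine that p53 also induces, at 656 FPKM in the metastatic and 135 FPKM in the primary tumor. TGFB1 had a log2 ratio of -0.76 and CDKN1A, a cell cycle inhibitor, of 0.54. Of 11 expressed mRNAs with AU-rich elements, reported as bound by ZFP36, 3 were lower and 1 higher by 2-fold or more, around a median of -0.41. After scaling to the same sum 5 were lower, and the median was -0.90 under a filter of 5 FPKM. The protease gene PLAU was the higher one at 3.47, and PIM1, VEGFA and CXCL1 the lower ones at -1.61, -1.60 and -1.34. Of 10 CCR4-NOT subunits 1 was lower and 0 higher, the lower one being CNOT11 at 29.2 FPKM in the metastatic and 66.7 FPKM in the primary tumor. CNOT6L, CNOT8 and CNOT2 had log2 ratios of -0.42, -0.40 and 0.27.

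Pathways known to induce BTG2 and IER3 were read in the same way. Of 18 expressed p53 target genes, 2 were lower and 2 higher by 2-fold or more, around a median of 0.12. Over all entries 9.35% were lower and 9.22% higher by as much, so these counts lie near the overall shares. The lower ones numbered 4 after scaling to the same sum and with a pseudocount of 0.1 FPKM or none, and the median was -0.02 after that scaling and with a filter of 5 FPKM. DDB2 and RRM2B, of DNA repair and nucleotide supply, had log2 ratios of -2.01 and -1.77, and AEN, an apoptotic nuclease, of 1.58 beside GDF15. Of 12 expressed NF-kB genes, 1 was lower, also near the overall share, and 0 were higher by 2-fold, around a median of -0.22. NFKBIA, the inhibitor of NF-kB, had 25.1 FPKM in the metastatic and 55.2 FPKM in the primary tumor. TNFAIP2, NFKB2 and RELA had log2 ratios of -0.67, 0.63 and 0.57.

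Signs of stress and of other cells were set beside the members. Of 10 expressed heat shock genes, 4 were higher and 0 lower by 2-fold in the metastatic tumor, around a median of 0.75. Over all entries 9.22% were higher and 9.35% lower by as much. The part of stress or handling in the levels of the members was not tested. HSPH1, DNAJA1, HSPB1 and BAG3 were the higher ones, at 1.53, 1.16, 1.15 and 1.09. After scaling to the same sum 1 of the 10 was past 2-fold. The 10 expressed reference genes lay around a median of 0.05 and 0 of them passed 2-fold, with GAPDH at -0.64, TBP at 0.64 and GUSB at 0.43.

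Most of the expressed fibroblast markers stood lower in the metastatic tumor, the direction of most members. Of 11 fibroblast markers with a row of their own, 7 were expressed, 5 were at least 2-fold lower and 1 higher. Over all entries 9.35% were lower and 9.22% higher by as much. The summed level of the 11 was 161 FPKM in the metastatic and 527 FPKM in the primary tumor. COL1A2 made most of this sum, at 149 FPKM in the metastatic and 474 FPKM in the primary tumor. COL3A1, COL1A1 and FAP had log2 ratios of -3.59, -1.76 and -1.65. DCN was the higher one, at 2.89 FPKM in the metastatic and 0.370 FPKM in the primary tumor. LUM stood at 0.0859 FPKM in the metastatic tumor and was listed at 0 in the primary tumor. Endothelial markers summed to 5.92 FPKM in the metastatic and 27.2 FPKM in the primary tumor over 12 genes, of which 3 were expressed and 2 at least 2-fold lower. KDR was listed at 0 in both libraries, while EGFL7, CLDN5 and ESAM had log2 ratios of -2.97, -1.48 and -0.23. Macrophage and neutrophil markers summed to 15.2 FPKM in the metastatic and 9.38 FPKM in the primary tumor over 11 genes, of which 3 were expressed, with AIF1 and S100A8 at 0 in both. LYZ, CSF1R and S100A9 had log2 ratios of 1.80, -0.73 and -0.47. LYZ made most of the metastatic sum, at 12.0 FPKM in the metastatic and 2.72 FPKM in the primary tumor. Smooth muscle markers summed to 125 FPKM in the metastatic and 49.9 FPKM in the primary tumor over 9 genes, of which 7 were expressed and 3 at least 2-fold higher. MYL9 made most of the metastatic sum, at 81.5 FPKM in the metastatic and 12.2 FPKM in the primary tumor. MYL9, DES, CNN1 and MCAM had log2 ratios of 2.64, 1.87, 1.37 and 0.91, while TAGLN and NOTCH3 were lower, at -0.43 and -0.77. ACTA2 had 0.206 FPKM in the metastatic and 0.441 FPKM in the primary tumor, and MYH11 was listed at 0 in both. The part of these cells in the levels of the members was not tested, and fewer cells of a type and less RNA per cell cannot be told apart in a bulk library. How reads from the mouse host were handled is not given, so whether marker RNA came from human or mouse cells is unknown. Tumor cells can also carry such RNA, and the source was not tested.

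Genes with the most similar pair of levels were found by distance in log2(FPKM + 1) over the 2 libraries among 6055 genes of at least 10 FPKM. With only 2 values a gene, such likeness is a description of level and ratio. Nearest to NR4A1 was ATF3, at 6.76 FPKM in the metastatic and 83.5 FPKM in the primary tumor, a distance of 0.0853, followed by SLC6A8 and DMKN at 0.469 and 0.474. Nearest to EGR1 were TFF3, CP and FOS, at distances of 0.768, 0.890 and 1.03. Nearest to ZFP36 were PRODH2, ELF3 and DNM1, at 0.136, 0.159 and 0.165.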

How the data were processed

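RNA was sequenced from 1 metastatic and 1 primary xenograft tumor, 1 library each. The authors deposited 1 table of FPKM values with 62573 rows and a column for each library, per the file headers. Per the submitters' processing notes, Cufflinks 2.2.1, STAR 2.7.6a, bcl2fastq 2.18.0.12 and the human build GRCh38 were used; the role of each is not named. How reads from the mouse host were handled, and which gene annotation was used, is not given in the sources used here, so mouse RNA read as human cannot be separated. The table holds no counts, so no counting interval is given. An exact 0 can be a failed estimate.

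Rows with the same label were summed. A locus merged with other genes was counted for a gene only where the other symbols were clones, short RNAs or antisense RNAs. Log2 ratios used a pseudocount of 1 FPKM and no rescaling, and entries under 1 FPKM in both libraries were left out of counts. A gene was counted past a 2-fold difference, with no test. The members and all lists were chosen with earlier results of these data known. Named genes were all members, every gene of the lists of EGR partners, retinoid X receptors and paralogs, and up to 4 genes of each other list with the largest absolute log2 ratio; some genes that this rule takes are left out of the text. FOSL1, ARC, IL1A, DCN, TAGLN, NOTCH3, ACTA2 and the markers listed at 0 or named for their absence were chosen after their values were seen.

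Promoters were 250 bases before to 50 after a start. Of 11 mouse promoters of members, 9 had their first 30 transcribed bases in a GENCODE transcript of that gene, the printed ones included. The Btg2 promoter and an Egr2 promoter that was not printed did not. The summing of rows and the call past 2-fold were tested on simulated data with 4-fold changes. These were built from entries with a mean of at least 10 FPKM, so lower levels, merged loci and rescaling were not covered. Python 3.11.15, pandas 2.3.3 and NumPy 2.4.6 were used.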

Additional observations from a re-analysis of the deposited data

How the results depend on the processing

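With 1 library per tumor, no result could be repeated without a library. No paired analysis was possible because each group has 1 library. Under pseudocounts of 0.1 and 0.5 FPKM, no filter, a filter of 5 FPKM, the highest row of a label and 3 scalings, and under scaling to reference genes and no pseudocount, both chosen after seeing the data, the count of members at least 2-fold lower stayed at 7, except for 8 after scaling to the same sum, where IER2 joined. The median log2 ratio of the members ran from -2.11 to -1.93. At a 4-fold threshold 4 members, 4 other immediate early genes and 259 of all entries were lower, and with a filter of 5 FPKM 859 of all entries were at least 2-fold lower. After scaling to the same sum 1813 of all entries were lower, and with a pseudocount of 0.1 FPKM 1906. The filter of 5 FPKM and that scaling also change how many entries are counted, and that number was not recorded. The counts 859 and 1813 are therefore not shares of 13811. Log2 ratios of EGR3, which had the lowest FPKM of the members past the filter, ran from -2.98 to -2.23. Those of NR4A3, under the filter, ran from 0.05 to 0.87, and IER3 stayed between -0.41 and -0.22. The median of endothelial markers was 0.014 without a filter, against -1.48 with it, as most of these genes were under 1 FPKM. Read depth is unknown, so the precision of low values such as those of NR4A3 cannot be given.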

Other observations

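NR4A3 stood at a ratio of 11 to 6 between the metastatic and the primary library to within 6.9e-05%, among whole-number ratios with a denominator up to 20. This is not particular to NR4A3. IL1A had 0.0219248 FPKM in both libraries. RXRB, at 0.0748612 FPKM in the metastatic and 0.299445 FPKM in the primary library, also stood at a whole-number ratio. How many low entries do so was not counted. EGR1 stood at 1.94 times the level of FOS in the metastatic and at 0.723 of it in the primary tumor, so the more abundant of the pair differed between the tumors.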
